A study of Mus musculus with 6 samples.

Results

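The genes described here were 10 heat shock and chaperone genes of the 31053 genes counted: Hspa1a, Hspa1b, Hspa8, Hsp90aa1, Hsp90ab1, Dnajb1, Dnaja1, Hspb1, Hsph1 and Hspe1. They were chosen by gene symbol, with their levels across groups of cells in these libraries already known, and each symbol matched 1 row of the gene table. Differences between cell classes are therefore given as levels and their spread, with no test, whereas the comparison of EV with WT-Bmal1 was tested across all genes.

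Heat shock proteins are chaperones that hold unfolded proteins in solution, refold them with ATP or pass them on for degradation. The transcription factor HSF1 induces a part of the family within minutes of heat, oxidative or proteotoxic stress by binding heat shock elements, which are inverted repeats of GAA in the promoter. Other members, such as the cognate HSP70 Hspa8 and the HSP90 beta chain Hsp90ab1, are made in nearly every cell at all times. In dissociated tissue the inducible genes are also known to respond to the handling of the cells.

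The data were droplet single-cell RNA counts (10x Genomics 3′ chemistry) from material whose labelled source was the mouse melanoma line YUMM2.1. In the EV group the line carried an empty vector, and in the WT-Bmal1 group it carried added wild-type Bmal1, the activating transcription factor of the circadian clock. The paper describes lines of these names as YUMM2.1 cells in which Bmal1 was not knocked out, with ectopic Bmal1 in the latter. It reports that both kept clock function. Each group was 1 library that pooled 3 replicates marked with hashtag antibodies, h1, h7 and h8 in EV and h3, h5 and h9 in WT-Bmal1. The labels call them replicates without naming separate animals, give neither age nor strain of a host, and leave group and library impossible to tell apart. The files of a further group, Bmal1 bHLH, were copies of the WT-Bmal1 files in 3 of 3 cases, so that group was not analysed here.

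After filtering, 3978 EV cells with a median of 5094 UMIs (molecules counted) and 2386 WT-Bmal1 cells with a median of 7570.5 UMIs remained. A single hashtag was called in 3222 and 1621 of them, and 5 barcodes occurred in both libraries. Although a cell line is the labelled source, most cells carried immune markers. Cells were placed in the class with the largest share of detected marker genes, which gave 882 monocyte-macrophages, 589 dendritic cells, 1358 T cells, 1315 NK cells, 67 fibroblasts and 85 melanoma cells with 1 hashtag, while 508 such cells reached no class. Of the monocyte-macrophages, 164 lay near the border of the class. The median share of detected markers in this class was 58.3% for its own list. It was 14.3% for the lists of type 1 conventional and plasmacytoid dendritic cells. For the other dendritic lists and the T, NK, fibroblast and melanoma lists it was 0%. Levels below are UMIs per 1000000 UMIs of a class and hashtag (CPM). They count 3′ ends, are not divided by gene length and are compared within a gene only. They average over cells, so more positive cells and more RNA per cell are separated only where single cells are described.

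Hspa1a and Hspa1b encode the stress-inducible cytosolic HSP70 and lie head to tail on the minus strand of chromosome 17, at chr17:34969190-34972156 and chr17:34956436-34959238 in GENCODE M21 (GRCm38), with 9951 bases between them. Each is a gene of 1 exon. Their coding sequences were 99.5% identical, whereas the stretches after the coding sequence, where 3′ reads fall, were 53.0% identical over 820 aligned positions. Reads near the end can therefore be told apart, but reads that reach the coding sequence cannot, and the split of UMIs between the genes is uncertain to that extent. The 250 bases before the start sites, taken from RefSeq (GRCm38.p6), are shown because the pair rose and fell together in single cells, and that of Hspe1 because it held the most matches to the searched motif. Capitals mark GAANNTTC or TTCNNGAA, the core of a heat shock element, where N is any base. Each motif is its own reverse complement, so 1 search covers both strands, and the windows are chr17:34972157-34972406 (minus strand), chr17:34959239-34959488 (minus strand) and chr1:55087898-55088147 (plus strand).
Hspa1a: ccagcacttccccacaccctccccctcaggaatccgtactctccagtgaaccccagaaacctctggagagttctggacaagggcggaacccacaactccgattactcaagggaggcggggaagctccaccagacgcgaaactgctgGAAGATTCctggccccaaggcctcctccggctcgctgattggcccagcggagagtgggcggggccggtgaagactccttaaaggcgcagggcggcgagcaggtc
Hspa1b: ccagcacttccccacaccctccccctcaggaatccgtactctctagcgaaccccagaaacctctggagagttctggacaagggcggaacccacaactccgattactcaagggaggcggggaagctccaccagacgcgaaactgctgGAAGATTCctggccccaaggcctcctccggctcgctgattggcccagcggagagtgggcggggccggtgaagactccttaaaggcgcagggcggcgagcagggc
Hspe1: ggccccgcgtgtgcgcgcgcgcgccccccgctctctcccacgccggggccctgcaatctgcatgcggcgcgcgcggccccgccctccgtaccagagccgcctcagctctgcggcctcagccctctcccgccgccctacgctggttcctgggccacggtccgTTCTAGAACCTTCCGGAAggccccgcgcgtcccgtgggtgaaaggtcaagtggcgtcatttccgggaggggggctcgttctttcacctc

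The windows of Hspa1a and Hspa1b shared 247 of 250 bases, and both held 1 match, which began 104 bases before the start. The Hspe1 window held 3 matches that overlapped each other, beginning 89, 84 and 79 bases before the start. Of the 7 members with a RefSeq window, 6 held a match in at least 1 of their windows (Hspa1a, Hspa1b, Hspe1, Hspb1, Dnaja1 and Hsph1), and the 2 windows of Dnajb1 held none. Windows were counted from RefSeq starts, and 1 of the Dnajb1 windows and all Dnaja1 windows lie inside the genes as placed by GENCODE. By window, 7 of 11 held a match, and the 2 windows of Hsph1 overlapped and held the same one. Among all 32851 windows of the same length, 12.8% held a match and 1.46% held 2 or more. A match describes the letters in the window and not binding. Hspe1 and Dnaja1 have pseudogene copies by name among the annotated genes. Whether those copies were counted here, and so took some of their reads, was not checked.

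Hspa1a stood highest in monocyte-macrophages as a class, with most of the signal in a part of these cells, as described below. Its level there was 949.7, 101 and 829 CPM in EV h1, h7 and h8, and 1089, 682 and 609 CPM in WT-Bmal1 h3, h5 and h9. Hashtag h7 was far below the other 5, and EV and WT-Bmal1 overlapped. Over the 6 hashtags the mean was 709.9 ± 346 CPM (SD, n = 6), against 87.3 ± 79.3 CPM in dendritic cells, 76.0 ± 47.6 CPM in T cells, 19.7 ± 15.9 CPM in fibroblasts, 18.0 ± 13.3 CPM in NK cells and 10.0 ± 13.1 CPM in melanoma cells. Monocyte-macrophages were above dendritic cells in 6 of 6 hashtags by more than the spread, and T cells above fibroblasts likewise. Dendritic and T cells were closer than their spread, as were fibroblasts, NK cells and melanoma cells in their order. Within a hashtag, the level in monocyte-macrophages was 5.46-fold to 22.5-fold that in T cells, with a median of 9.13-fold.

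Hspa1b had the same leading class. In monocyte-macrophages its level was 1126, 125 and 1386 CPM in EV h1, h7 and h8, and 1717, 995 and 1001 CPM in WT-Bmal1 h3, h5 and h9. The mean of 1058 ± 534 CPM (SD, n = 6) was followed by T cells at 197 ± 116 CPM and dendritic cells at 133 ± 104 CPM, which did not differ beyond their spread, and by NK cells, melanoma cells and fibroblasts between 67.7 and 31.8 CPM, whose neighbours did not differ beyond their spread either. Of the UMIs of the pair, the median share given to Hspa1a was 39.7% in monocyte-macrophages and 22.5% in NK cells. Monocyte-macrophages made up 9.77% to 22.1% of the cells of a hashtag and held 66.1% to 75.2% of its Hspa1a and Hspa1b UMIs, except in h7, where they held 26.0%.

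**Figure D1:**
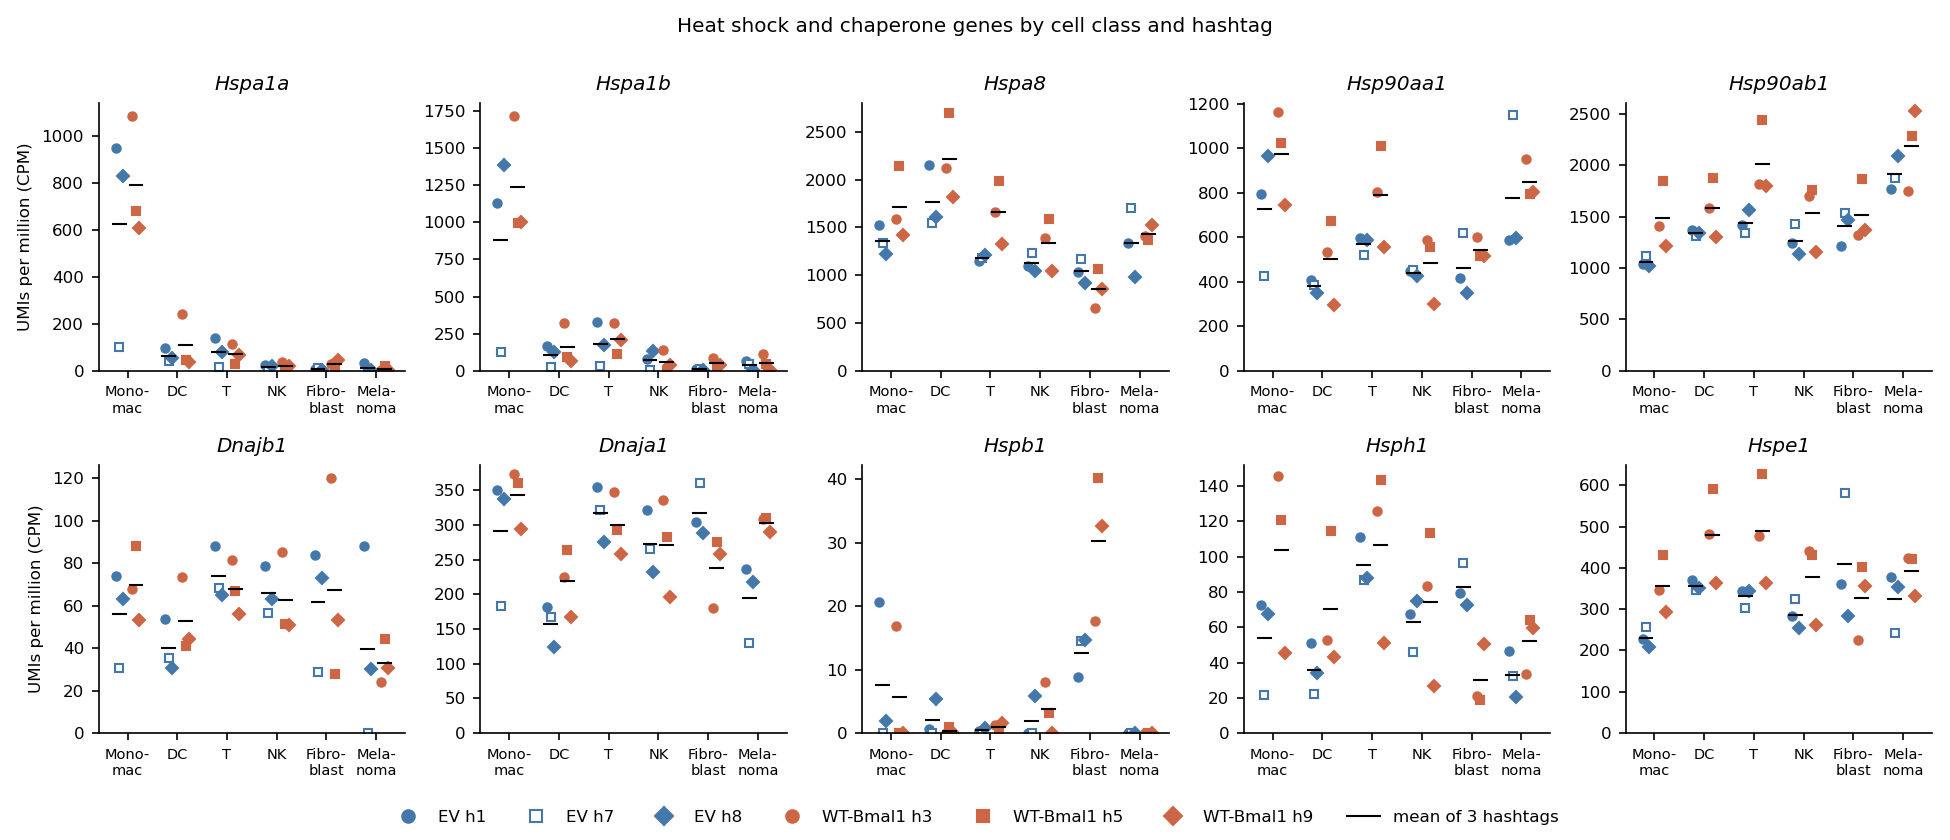
Level of each member (CPM, linear axis from 0, a separate scale for each gene) in the 6 cell classes, 1 point per hashtag, EV in blue and WT-Bmal1 in orange, with a line at the mean of 3 hashtags. Hspa1a and Hspa1b stand out in monocyte-macrophages, where EV h7 (open square) is at 101 and 125 CPM, while Hspa8 and Hsp90ab1 are present in every class.

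The low level of the pair in h7 was not limited to monocyte-macrophages. Summed, Hspa1a and Hspa1b stood at 53.7 CPM in T cells of h7 and at 144 to 472 CPM in T cells of the other 5 hashtags, and at 67.5 CPM in dendritic cells of h7 against 104 to 564 CPM in the others. In NK cells h7 was at 10.2 CPM and WT-Bmal1 h5 lower still at 6.39 CPM, with the others at 58.1 to 175 CPM. In monocyte-macrophages depth did not set h7 apart, with a median of 8414.5 UMIs (range of the other hashtags 7496 to 11088). Nor did the mitochondrial share, at 3.598% there (3.57% to 4.14%) and 4.73% in NK cells (4.07% to 5.09%). In T and dendritic cells h7 had the highest mitochondrial share, at 5.88% (others 4.64% to 5.45%) and 4.43% (3.15% to 4.10%). Its T cells also had the lowest median depth, 4361 UMIs (others 4400 to 6565). The part of these differences in the low level was not tested. The lowest hashtag count accepted for a cell was 19 for h7, 64 and 135 for h1 and h8, and 17 to 159 for the WT-Bmal1 hashtags, and the part of hashtag calling in the low level was not tested.

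Within the monocyte-macrophages a minority of cells carried nearly all of the signal. Of 882 cells, 362 (41.0%, exact 95% interval 37.8% to 44.4%) had any UMI of the pair, the median cell had none, and the 90th percentile was 84.7 UMIs per 10000. The highest cell reached 1096 per 10000. Cells with at least 10 per 10000 and at least 3 UMIs are called high cells here, a border set after the values were seen. There were 175 of them, and they held 97.5% of the UMIs of the pair, with 44 cells between 5 and 20 per 10000 near the border. The interval covers counting error only. High cells were also uneven over clusters of cells with similar expression. Of the 175, cluster 3 held 151 and cluster 5 held 10. Cluster 3 (338 cells, 282 of them monocyte-macrophages) stood at 6270 CPM of the pair. Cluster 5 (481 cells, 429 of them monocyte-macrophages) stood at 193 CPM, within the spread of T cells (273 ± 162 CPM, mean and SD). Hspa1a and Hspa1b were the top genes of cluster 3, so this split is not independent of their level.

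High cells were present in every hashtag. Their share was 18.5% of 297 cells in EV h1, 4.41% of 68 in h7 and 20.5% of 190 in h8. It was 30.5% of 177 cells in WT-Bmal1 h3, 14.0% of 86 in h5 and 18.8% of 64 in h9. The group means were 14.5% ± 8.78 and 21.1% ± 8.52 (SD, n = 3 each), and the ranges of the groups overlapped. In the other classes high cells were 34 of 589 dendritic cells, 55 of 1358 T cells, 20 of 1315 NK cells, 4 of 85 melanoma cells and 0 of 67 fibroblasts.

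Depth differed between classes, so each cell was also thinned to 2000 UMIs. The share of cells with a UMI of the pair was then 28.3% of 830 monocyte-macrophages, 13.2% of 521 dendritic cells, 9.85% of 1228 T cells, 4.83% of 1202 NK cells, 10.0% of 60 fibroblasts and 7.32% of 82 melanoma cells. The unthinned shares were 41.0%, 23.1%, 14.1%, 9.89%, 40.3% and 29.4% in the same order. Fibroblasts and melanoma cells, with medians of 23518 and 40312 UMIs, lost most of their apparent positivity. NK cells (median 5032 UMIs) gave the lowest share. Free RNA was not measured, so its part in these shares was not tested.

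**Figure D2:**
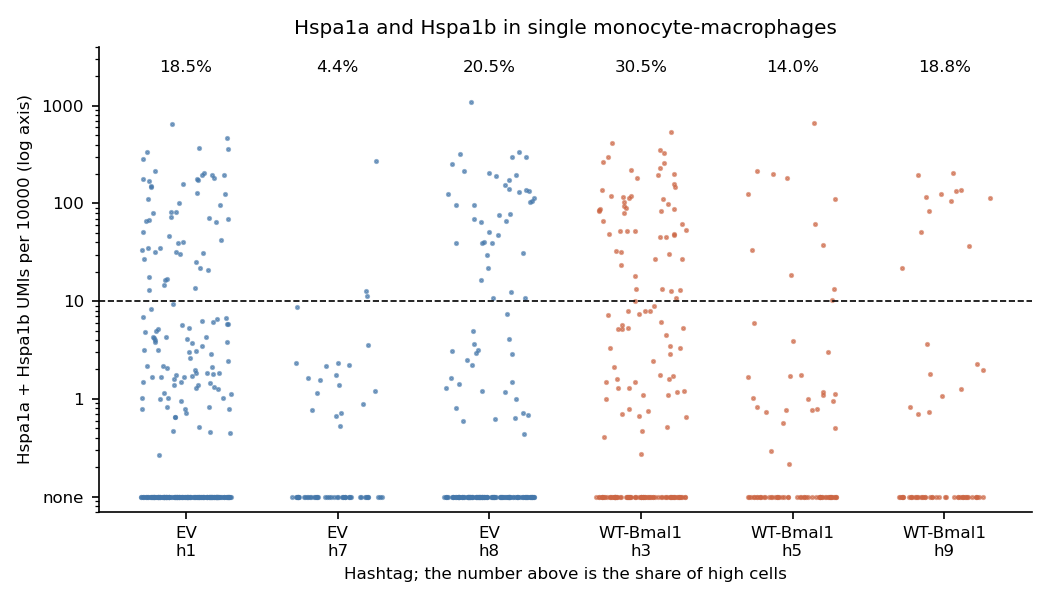
UMIs of Hspa1a and Hspa1b per 10000 UMIs in each of the 882 monocyte-macrophages by hashtag (log axis, cells without a UMI at the bottom), with the border for high cells dashed. High cells spread from 10 to 1096 per 10000, and EV h7 had 3 of them.

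High cells carried more of the other inducible members as well. To keep the pair from diluting other genes, the CPM of this comparison leave Hspa1a and Hspa1b out of the total. Hsph1, the HSP110 exchange factor that releases ADP from HSP70, stood at 323 CPM in high cells and 37.4 CPM in the rest. Hsp90aa1, the inducible HSP90 alpha chain, stood at 2743 against 507 CPM, Dnaja1 at 1008 against 192 CPM and Dnajb1 at 191 against 40.8 CPM. Dnaja1 and Dnajb1 are J-domain partners that stimulate the ATPase of HSP70. On the log2 scale these differences were 3.11, 2.44, 2.39 and 2.22. Dnajb1 was higher in high cells in 6 of 6 hashtags, and the other 3 in 5 of 6, h7 with its 3 high cells being the exception.

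The constitutive members differed less. Hspa8, the cognate HSP70, stood at 2573 against 1318 CPM (0.96 on the log2 scale, 6 of 6 hashtags), Hspe1, the HSP10 lid of the mitochondrial chaperonin, at 462 against 247 CPM (0.90, 5 of 6) and Hsp90ab1 at 1830.3 against 1118 CPM (0.71, 5 of 6). Hspb1, a small heat shock protein that binds unfolded clients without ATP, had 91 UMIs in all monocyte-macrophages, and 86 of them were in high cells, from 3 hashtags. Across the 882 cells the Pearson correlation of log levels was 0.89 between Hspa1a and Hspa1b, 0.56 between Hspa1a and Hsp90aa1, 0.47 with Hsph1, 0.45 with Dnaja1, 0.39 with Hspa8 and 0.19 with Hspe1. These points share libraries and depth, and the values are descriptive.

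Beyond the members, the listed genes went both ways. Of 51 further chaperone and stress genes with at least 100 UMIs in these cells, 18 were higher in high cells, 3 of them in all 6 hashtags (Hmox1 and Hspa4l among them) and 6 lower in all 6, with a median difference of -0.12 on the log2 scale. Hmox1, the heme oxygenase induced by oxidative stress, stood at 1093 against 252 CPM, and Hspa4l, a relative of HSP110, at 52.8 against 30.3 CPM. Zfand2a, a heat-inducible proteasome adaptor, stood at 79.2 against 10.8 CPM, Bag3, an exchange factor of HSP70, at 143 against 28.1 CPM and the J-domain gene Dnajb4 at 46.4 against 11.4 CPM, each higher in 5 of 6 hashtags and without a UMI in the 3 high cells of h7. Lower in all 6 were Hspa14, Dnajc3, Dnajc10, Cct3, Cct5 and Cct7, of which the Cct genes encode subunits of the cytosolic chaperonin. Of 16 immediate early genes, which respond to growth factors and to tissue dissociation, 12 were higher, 5 of them in all 6 hashtags, with a median difference of 0.25. Jun stood at 1553 against 656 CPM, while Fos at 3128 against 2720.4 CPM and Junb at 3694 against 3594 CPM were nearly level. High cells had a median of 8149 UMIs, 2120 genes and 3.67% mitochondrial UMIs, and the rest 8756, 2613 and 3.73%.

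**Figure D3:**
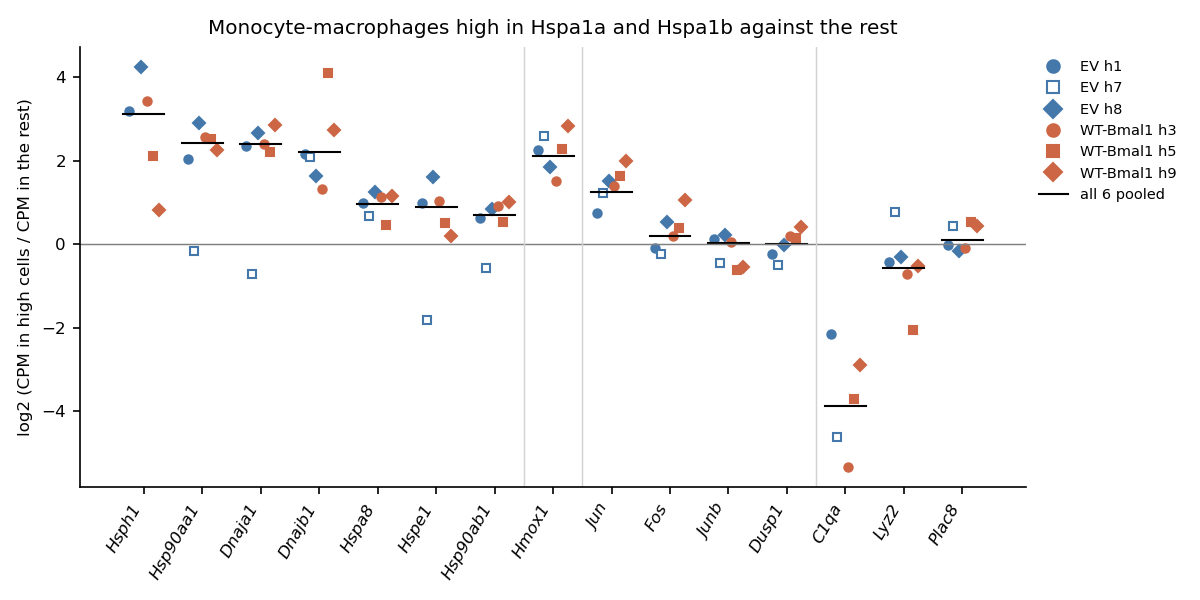
Difference in level between high cells and the rest of the monocyte-macrophages (log2 of the CPM ratio, totals without Hspa1a and Hspa1b) for 7 members and, to their right, a further stress gene, immediate early genes and markers, 1 point per hashtag and a line for all 6 pooled (Hsph1 of h7 and C1qa of h8, without a UMI in high cells, are not drawn). Hsph1, Hsp90aa1, Dnaja1 and Dnajb1 lie above 2 in the pooled cells, Hspa8, Hspe1 and Hsp90ab1 between 0.71 and 0.96, and C1qa at -3.88.

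By monocyte-macrophage subset, the median over hashtags was lowest in cells with C1q markers, a mark of mature tissue macrophages, although not in EV h7. Cells with at least 2 detected C1q-subset markers had 1406, 304 and 290.5 CPM in EV h1, h7 and h8 and 1320.05, 190.4 and 1189 CPM in WT-Bmal1 h3, h5 and h9. The higher and the lower values were found in both groups. Cells with at least 2 inflammatory markers, such as Arg1 and Nos2, had 3332, 3769 and 1698 CPM in EV and 4038, 2163 and 3199 CPM in WT-Bmal1, each above the C1q value of its own hashtag. The h7 value there rests on 3 cells. Medians over the hashtags were 746 CPM in C1q cells, 1168 CPM in non-classical monocytes, 2193 CPM in classical monocytes and 3266 CPM in inflammatory cells. The subsets overlap, since a cell can meet several of these conditions. High cells were 21 of 187, 34 of 231, 165 of 788 and 43 of 151 cells. C1qa itself stood at 38.6 CPM in high cells and 567 CPM in the rest, lower in 6 of 6 hashtags, and C1qb and C1qc were also lower in 6 of 6.

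**Figure D4:**
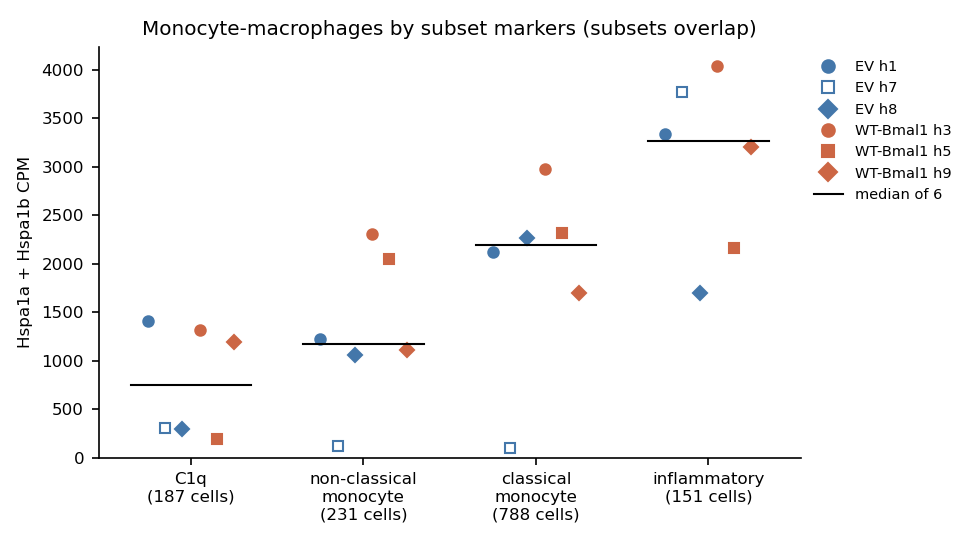
Summed level of Hspa1a and Hspa1b (CPM) in monocyte-macrophages that met the markers of each subset, 1 point per hashtag and a line at the median of 6. Medians rise from 746 CPM in C1q cells to 3266 CPM in inflammatory cells, and EV h7 is the lowest hashtag in both monocyte subsets but not in the C1q subset or in the inflammatory one, where it has 3 cells.

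The constitutive members followed another order of classes. Hspa8 was highest in dendritic cells at 1993 ± 428 CPM (SD, n = 6), above monocyte-macrophages at 1537 ± 324 CPM in 6 of 6 hashtags, and lowest in fibroblasts at 949.6 ± 182 CPM. Monocyte-macrophages, T cells, melanoma cells and NK cells followed each other within their spread. Hsp90ab1 was highest in melanoma cells at 2049 ± 312 CPM and lowest in monocyte-macrophages at 1274 ± 314 CPM, with no neighbours in the order apart by more than their spread. Hspe1 ranged from 417 ± 98.4 CPM in dendritic cells to 294 ± 83.5 CPM in monocyte-macrophages, again with neighbours within their spread. In single monocyte-macrophages Hspa8 had a UMI in 96.4% of cells and Hsp90ab1 in 93.9%, whereas Hspa1a had one in 32.4%.

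Hsp90aa1 lay between the inducible and the constitutive pattern. Its means were 852 ± 258 CPM in monocyte-macrophages, 813 ± 215 CPM in melanoma cells and 679.6 ± 190 CPM in T cells, and then 504, 462 and 442 CPM in fibroblasts, NK cells and dendritic cells. Dnaja1 ranged from 317 ± 70.8 CPM in monocyte-macrophages to 188 ± 49.1 CPM in dendritic cells, Dnajb1 from 70.9 ± 11.8 CPM in T cells to 36.3 ± 29.3 CPM in melanoma cells, and Hsph1 from 101 ± 33.0 CPM in T cells to 42.7 ± 17.1 CPM in melanoma cells. Hspb1 was highest in fibroblasts at 21.4 ± 12.2 CPM, at a mean of 6.55 CPM or less in the immune classes, and had 0 UMIs in all melanoma cells of both libraries, which allows at most 1.15 CPM in EV (exact Poisson interval).

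EV and WT-Bmal1 were compared to ask whether ectopic Bmal1 in the line went with a change of these genes in each class. UMIs were summed per class and hashtag and tested with edgeR's quasi-likelihood test, with Benjamini-Hochberg adjustment over all genes of a class. No member passed an adjusted p of 0.05 in any of the 6 classes under the main settings, while DESeq2 called 4 members in T cells and limma none. Among all genes, 0.0% of 6902 passed in monocyte-macrophages, 0.0% of 7253 in dendritic cells, 1.08% of 8129 in T cells (88 genes, 68 of them higher in WT-Bmal1), 0.0% of 7359 in NK cells, 0.0% of 2960 in fibroblasts and 0.0% of 6807 in melanoma cells. Hspb1 had too few UMIs to be tested in any class, which left 9 members in the immune classes, 8 in melanoma cells and 6 in fibroblasts. The T cell count of 88 fell to 0 without EV h7, WT-Bmal1 h5 or WT-Bmal1 h9, to 1 without EV h1, and was 141 without EV h8. Since the replicates of a group came from 1 library, the p-values measure the spread between hashtags within libraries.

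For the inducible pair in monocyte-macrophages, the values of the groups overlapped, as given above for each hashtag. The log2 fold change, WT-Bmal1 over EV, was 0.33 ± 0.62 (SE) for Hspa1a and 0.49 ± 0.65 for Hspa1b, with adjusted p = 0.86 and 0.794 (edgeR). Without EV h7 these became -0.16 and -0.02, so the direction rested on that hashtag. In dendritic cells the fold changes were 0.81 ± 0.63 and 0.64 ± 0.67, in T cells -0.19 ± 0.58 and 0.23 ± 0.58, and in NK cells 0.50 ± 0.59 and 0.01 ± 0.64, with adjusted p between 0.562 and 0.998 (edgeR). Without WT-Bmal1 h3 the dendritic values turned to -0.60 and -0.40. With these standard errors, small changes of the pair were not detectable.

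**Figure D5:**
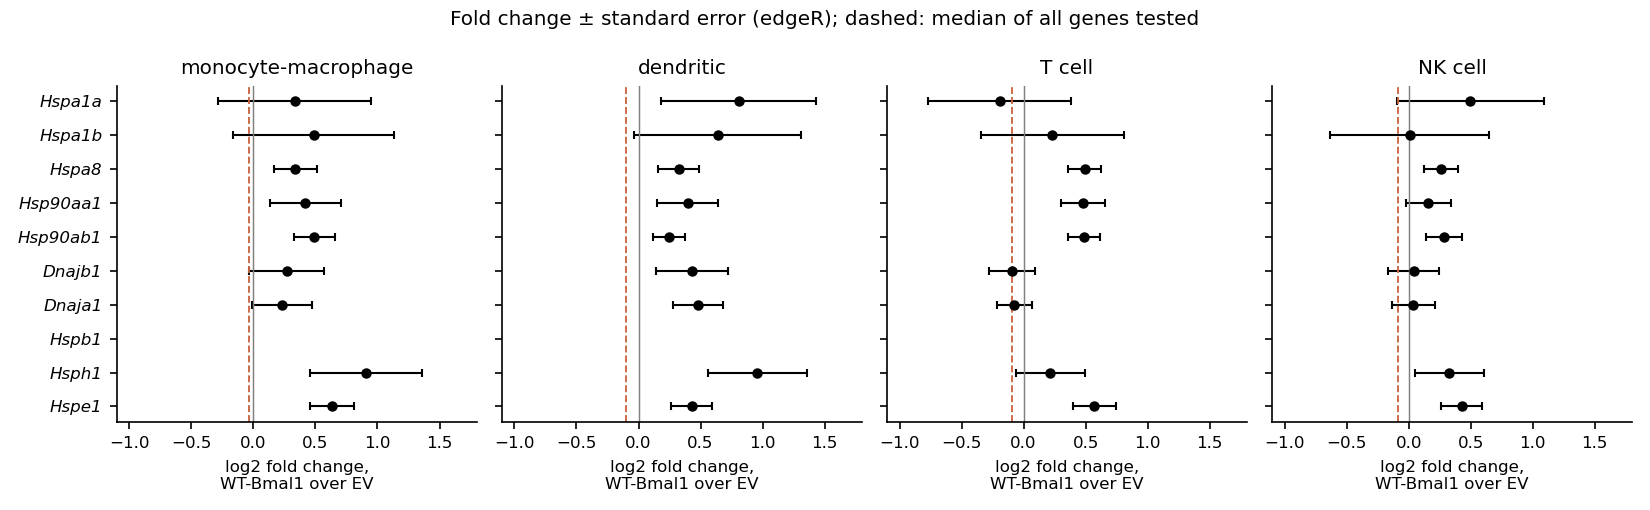
Log2 fold change of each tested member, WT-Bmal1 over EV, with its standard error (edgeR) in the 4 immune classes, and the median of all genes tested dashed. Hspa8, Hsp90ab1 and Hspe1 lie above 0 in each class with narrow errors, the inducible pair has wide ones, and no member passed the adjusted threshold.

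The constitutive members had fold changes above 0 without passing the test. Hspe1 in monocyte-macrophages stood at 227, 258 and 208 CPM in EV h1, h7 and h8 and at 346, 432 and 294 CPM in WT-Bmal1 h3, h5 and h9, so the groups did not overlap. Its log2 fold change was 0.63 ± 0.18 (edgeR, adjusted p = 0.308). Hsp90ab1 stood at 1039, 1119 and 1023 CPM in EV and at 1405, 1847 and 1212 CPM in WT-Bmal1, again without overlap, with a log2 fold change of 0.49 ± 0.17 (edgeR, adjusted p = 0.332). These were 2 of 9 members with every WT-Bmal1 hashtag above every EV hashtag, against 8.2% of all genes tested in that class. At an unadjusted p under 0.05 there were again 2 of 9, against 12.3% of all genes.

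Hspa8 and Hsp90aa1 overlapped between the groups in these cells, at 1218 to 1523 CPM in EV against 1418 to 2141 CPM in WT-Bmal1 for Hspa8 and at 426 to 964 against 744 to 1161 CPM for Hsp90aa1. Their log2 fold changes were 0.34 ± 0.17 and 0.42 ± 0.29, and those of Dnaja1, Dnajb1 and Hsph1 were 0.23 ± 0.24, 0.27 ± 0.30 and 0.91 ± 0.45, with adjusted p between 0.452 and 0.759 (edgeR). All 9 fold changes were above 0, with a median of 0.42, whereas 45.5% of all genes were above 0 and their median was -0.04. The members share hashtags and high cells, so the 9 values are not independent. Without EV h7, Hspa1a, Hspa1b and Dnaja1 fell to or below 0.

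In T cells the same constitutive members came closest to the threshold. Hsp90ab1 stood at 1414, 1341 and 1565 CPM in EV h1, h7 and h8 and at 1817, 2436 and 1794 CPM in WT-Bmal1 h3, h5 and h9, with a log2 fold change of 0.49 ± 0.13 (edgeR, adjusted p = 0.0764). Hspa8 stood at 1153, 1179.9 and 1209 CPM in EV and at 1659, 1985 and 1329 CPM in WT-Bmal1 (0.49 ± 0.13, edgeR, adjusted p = 0.0795). Hspe1 stood at 345, 304 and 345 CPM in EV and at 477, 629 and 363 CPM in WT-Bmal1 (0.57 ± 0.17, edgeR, adjusted p = 0.1). In each of the 3 genes the groups did not overlap, and WT-Bmal1 h5 was the highest hashtag.

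These were 3 of 9 members without overlap in T cells, against 11.2% of all genes, and Hsp90aa1 (0.48 ± 0.18, edgeR, adjusted p = 0.155) made 4 of 9 at an unadjusted p under 0.05, against 22.7%. DESeq2 called the same 4 members, with adjusted p from 0.00625 to 0.0471 and 299 genes in all, so the call depends on the test. Hspa1a, Dnajb1 and Dnaja1 had fold changes below 0 in these cells, and over the alternatives 5 members changed sign at least once.

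In dendritic cells 3 of 9 members had an unadjusted p under 0.05, against 15.7% of all genes: Hspe1 (log2 fold change 0.43 ± 0.17), Dnaja1 (0.48 ± 0.20) and Hsph1 (0.96 ± 0.40), with adjusted p from 0.257 to 0.287 (edgeR). No member had all WT-Bmal1 hashtags above all EV hashtags there, against 6.77% of all genes, since WT-Bmal1 h9 lay within or below the EV range for each of them. Hspa8, Hsp90aa1 and Hsp90ab1 changed by 0.32 ± 0.17, 0.40 ± 0.25 and 0.25 ± 0.13. In NK cells Hspe1 alone (0.43 ± 0.17, edgeR, adjusted p = 0.341) had an unadjusted p under 0.05, 1 of 9 against 11.6%, and no member was free of overlap, against 4.85%. Hspa8, Hsp90aa1 and Hsp90ab1 changed by 0.26 ± 0.14, 0.16 ± 0.18 and 0.29 ± 0.14 there. All 9 fold changes were above 0 in both classes, beside 37.2% and 36.8% of all genes. The members share hashtags, so these values are not independent. In NK cells Hspa1b, Dnaja1 and Dnajb1 were at 0.01 ± 0.64, 0.04 ± 0.17 and 0.04 ± 0.21. Over the alternatives 3 members changed sign at least once in dendritic cells and 5 in NK cells.

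Fibroblasts and melanoma cells gave few hashtagged cells, with 8 to 13 fibroblasts and 3 to 30 melanoma cells per hashtag, so small changes were not detectable. In fibroblasts 0 of 6 members tested had an unadjusted p under 0.05 (8.41% of all genes), 0 had every WT-Bmal1 hashtag above every EV hashtag (6.08%) and 1, Dnaja1, had every one below (7.6%). In melanoma cells 0 of 8 had an unadjusted p under 0.05 (3.06%) and 1, again Dnaja1, had every WT-Bmal1 hashtag above every EV hashtag (5.45%). Over all fibroblasts of a library, hashtagged or not, Hspa1b stood at 26.7 CPM in 134 EV cells (exact Poisson 95% interval 20.5 to 34.0) and at 88.5 CPM in 198 WT-Bmal1 cells (79.8 to 97.9), and Hspb1 at 12.1 (8.09 to 17.3) and 43.3 CPM (37.3 to 50.03). Over all melanoma cells Hspa1b stood at 35.2 CPM in 75 EV cells (29.0 to 42.3) and at 82.3 CPM in 176 WT-Bmal1 cells (75.6 to 89.4). These intervals cover counting error only, with 1 library a group. By hashtag, Hspa1b in fibroblasts stood at 13.2, 9.63 and 7.29 CPM in EV h1, h7 and h8 and at 84.8, 34.0 and 41.5 CPM in WT-Bmal1 h3, h5 and h9. Hspb1 there stood at 8.81, 14.4 and 14.6 CPM in EV and at 17.7, 40.2 and 32.6 CPM in WT-Bmal1. Neither gene overlapped between the groups, but with 56 and 38 UMIs over the 6 hashtags both were below the filter and were not tested. The other untested members there, Hspa1a (35 UMIs) and Hsph1 (87 UMIs), did not overlap either. Hspa1a, Hspa1b and Hspb1 had only 1 to 4 UMIs in each EV hashtag. The shares of all genes given above cover genes past the filter only, so there is no share to set beside these untested members. Hspa1a stood at 3.64 to 14.4 CPM in EV and 15.5 to 47.5 CPM in WT-Bmal1. Hsph1 went the other way, at 72.9 to 96.3 CPM in EV and 18.6 to 50.4 CPM in WT-Bmal1. Over all fibroblasts of a library Hsph1 stood at 56.6 CPM in EV and 65.4 CPM in WT-Bmal1. In melanoma cells the Hspa1b values were 68.6, 48.6 and 4.58 CPM in EV and 114.5, 48.4 and 3.85 CPM in WT-Bmal1, so the groups overlapped although the library intervals did not.

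The wider chaperone list held 69 genes beside the members: heat shock factors, other HSP70, HSP90, J-domain and small heat shock proteins, chaperonins, co-chaperones and stress adaptors. None was called by edgeR in any class under the main settings. In T cells DESeq2 called 2, Hspd1 and Tcp1, and edgeR called both under alternatives such as TMM normalization or clusters in place of gates. In monocyte-macrophages 51 were tested, 41 had a fold change above 0 and 4 an unadjusted p under 0.05 (12.3% of all genes), with a median log2 fold change of 0.16 against -0.04 for all genes. Hikeshi, which carries HSP70 into the nucleus, stood at 12.7 to 22.9 CPM in EV and 28.0 to 31.8 CPM in WT-Bmal1, and the polyubiquitin gene Ubb at 411 to 449.99 CPM in EV and 530.2 to 741 CPM in WT-Bmal1. Hspa13 (30.5 to 42.0 against 21.4 to 27.3 CPM) and the J-domain protein Dnajb6 (207 to 239 against 173 to 183 CPM) were lower in every WT-Bmal1 hashtag, as were 10.6% of all genes. The log2 fold changes of these 4 were 0.90 ± 0.26, 0.54 ± 0.16, -0.57 ± 0.23 and -0.32 ± 0.14, with adjusted p from 0.308 to 0.404 (edgeR).

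In T cells 55 of the list were tested, 38 had a fold change above 0 and 14 an unadjusted p under 0.05 (22.7% of all genes), 10 of them higher in WT-Bmal1, with a median of 0.12 against -0.10 for all genes. The counts were 53 tested and 35 above 0 in dendritic cells (5 with an unadjusted p under 0.05, against 15.7% of all genes), 52 and 31 in NK cells (2, against 11.6%), 37 and 14 in fibroblasts (1, against 8.41%), and 55 and 31 in melanoma cells (5, against 3.06%). Hspd1, the HSP60 that forms the mitochondrial chaperonin with Hspe1, stood at 123 to 160.3 CPM in EV and 162 to 209 CPM in WT-Bmal1 monocyte-macrophages, and at 216 to 244 against 297 to 421 CPM in T cells.

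Immediate early genes had values in the opposite direction in the immune classes and are given as measured beside the members. Their summed level in monocyte-macrophages was 22466 to 23728 CPM in EV and 14991 to 17796 CPM in WT-Bmal1. It was 7212 to 9179 against 4317 to 5996 CPM in T cells and 6961 to 8517 against 5672 to 6228 CPM in NK cells, while dendritic cells overlapped. Fibroblasts (2778 to 8717 against 5057 to 7906 CPM) and melanoma cells (1638 to 4451.5 against 1788 to 3674 CPM) overlapped as well. In T cells 4 of 16 were called lower in WT-Bmal1 by edgeR, namely Klf4, Egr1, Fosb and Jund, with adjusted p from 0.0301 to 0.042, beside 1.08% of all genes called there. All T cell calls were lost without EV h7, WT-Bmal1 h5 or WT-Bmal1 h9. In the other classes none was called. Hashtag h7, lowest for Hspa1a and Hspa1b, was not set apart in the same way for these genes. It was lowest of the EV hashtags in monocyte-macrophages at 22466 CPM and in NK cells at 6961 CPM, above all WT-Bmal1 hashtags in both, highest of all in T cells at 9179 CPM and in dendritic cells at 10935 CPM, and lowest of all in fibroblasts at 2778 CPM. Their part in the chaperone differences was not tested.

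The genes most like Hspa1a over the 882 monocyte-macrophages, by Pearson correlation of log levels and leaving out members, were Hmox1 (0.44), Rhob (0.40), Jun (0.38), Hilpda (0.37), Ppp1r15a (0.36), Bhlhe40 (0.35), Gadd45g (0.34) and Rhov (0.34). All were below the members Hsp90aa1, Hsph1 and Dnaja1. Over 25 sums of a class and hashtag with at least 20 cells, the 8 most alike were Sap30 (0.91), Ticam2 (0.89), Hcar2 (0.88), Ccl2 (0.88), Il1rn (0.88), Cndp2 (0.88), Ptgs2 (0.88) and Egln3 (0.88). Over the same sums Hspa1b reached 0.95, Hsp90aa1 0.57, Hspa8 0.23, Hspe1 -0.22 and Hsp90ab1 -0.27. The sums of a class share markers and the sums of a hashtag share a library, so these values describe likeness across classes.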

How the data were processed

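The authors deposited raw UMI counts for each gene in each barcode. Per the file headers the software was Cell Ranger 6.1.2, and the submitters' processing notes name mm10. Hashtag counts were in the same matrices. Cells with at least 200 genes and at most 20% mitochondrial UMIs were kept. A hashtag was called from a mixture of 2 components, and only cells with exactly 1 hashtag entered a replicate. No doublet caller was run, so doublets within a hashtag remain. A class needed at least 3 detected markers, 1 marker UMI per 10000 and a margin of 0.1 over the next class; the gating and hashtag rules were set after the files were seen. Members, marker lists and gene lists were chosen with earlier results of these data known. All members were named; of the chaperone list, those called or else the 2 largest changes in each direction in monocyte-macrophages, and the 8 genes most like Hspa1a by each measure. Hspd1, Tcp1 and the subset, marker and immediate early genes were named after their values were seen.

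Counts were summed per class and hashtag. The main test was that of edgeR 4.0.16 under R 4.3.3, with the summed gene UMIs as library size. It was run first on simulated data in which every gene had the same fixed spread. That run does not show how the test performs for genes as variable as the pair. DESeq2 1.42.0 and limma 3.58.1 (pseudocount 1) were the alternatives. Other tools were Python 3.11.15, scanpy 1.11.5, scikit-learn 1.9.0, igraph 0.11.9 and scipy 1.17.1. The Bmal1 bHLH files were identical to those of WT-Bmal1 and were left out. A gene of the chaperone list is not reported here.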

Additional observations from a re-analysis of the deposited data

Results flagged for a closer look

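Dnaja1, a J-domain partner of HSP70, differed in direction between fibroblasts and melanoma cells. In fibroblasts every WT-Bmal1 hashtag (180 to 275 CPM) lay below every EV hashtag (288 to 361 CPM), with a log2 fold change of -0.41. Over all fibroblasts of a library, hashtagged or not, the order was the opposite, with 242 CPM in 134 EV cells (exact Poisson 95% interval 222 to 262) and 284 CPM in 198 WT-Bmal1 cells (268 to 301). In melanoma cells every WT-Bmal1 hashtag (290.4 to 309.9 CPM) lay above every EV hashtag (129.5 to 237 CPM), with a log2 fold change of 0.56, and over all melanoma cells of a library the levels were 216 and 289 CPM. Neither passed the adjusted threshold, the difference between the classes was not tested, and EV h7 held 8 fibroblasts and 3 melanoma cells.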

How the results depend on the processing

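No paired analysis was possible because the groups share no hashtag number. Of the member fold changes given in the text, 31 were counted here, with 438 values over the alternatives. Of these values, 407 kept their direction and side of the threshold, 9 passed it and 22 changed sign. Dnaja1 and Dnajb1 in NK cells were not among the 31. They ranged over the settings from -0.16 to 0.20 and from -0.37 to 0.18, so both changed sign. Over all members and classes there were 698 values, of which 53, in 9 members, changed sign. The cause was not tested. Without EV h7 the monocyte-macrophage fold changes were -0.16 for Hspa1a, -0.018 for Hspa1b and -0.0027 for Dnaja1, and Hspa1b was -0.21 in T and -0.50 in NK cells. Without WT-Bmal1 h3 Hspa1a was -0.60 in dendritic and -0.76 in NK cells, Hspa1b -0.40, -0.23 and -2.11 in dendritic, T and NK cells, and Hsp90aa1 -0.015 in NK cells. With 1 hashtag left out at a time, the highest values were 0.76 for Hspa1a, 0.97 for Hspa1b and 0.39 for Dnaja1 in monocyte-macrophages, and 1.23 for Hspa1a and 1.11 for Hspa1b in dendritic cells. In T cells Hspa1a ranged from -0.85 to 0.47 and Hspa1b from -0.23 to 1.01, and in NK cells the highest were 0.93 for Hspa1a, 0.73 for Hspa1b and 0.38 for Hsp90aa1. Hspa1a in T cells was 0.47 without EV h1, 0.19 without WT-Bmal1 h5, 0.31 with hashtags called by centred log count, 0.12 with the pair summed and 0.87 with limma on per-cell CPM. That limma setting gave Hspa1a -0.18 and Hspa1b -0.12 in dendritic cells and Hspa1b -1.002 in NK cells. Centred log hashtags gave Hspa1a -0.11 in NK cells and Dnaja1 0.25 in fibroblasts, and clusters in place of gates gave Hspa1b -0.10 in NK cells.

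Members called in T cells numbered 4 without a gene filter (951 genes in all), 4 with DESeq2 (299) and 1 with centred log hashtags (268), and 1 was called in fibroblasts without a gene filter (230 in all). Other chaperones called were 4 in dendritic, 4 in T and 2 in NK cells without a gene filter, and 2 in T cells under TMM, centred log hashtags, clusters or DESeq2. Leaving out 1 hashtag gave 0 to 1 in dendritic and NK cells. Averaging per-cell CPM moved mean levels of Dnajb1 in T cells to 82.8, Hspa8 and Dnaja1 in fibroblasts to 753 and 207, and Hspa1a, Hspa1b, their sum and Hspa8 in melanoma cells to 26.8, 113, 139 and 979.7 CPM. Clusters gave Hspb1 0.031 CPM in melanoma cells. The share of high cells was 16.7% and 23.7% in EV and WT-Bmal1 with a border of 5 per 10000 and 12.3% and 18.6% with 20, settings added after seeing the data.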
